A study of Mus musculus with 10 samples.

Results

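Interferon-induced antiviral genes were examined in the liver of germ-free (GF) mice, as a group of 10 genes: *Ifit1*, *Ifit3*, *Isg15*, *Oas1a*, *Oas1b*, *Trim12a*, *Trim12c*, *Trim21*, *Trim30a* and *Usp18*. They were chosen by name from the Ifit, Oas and Trim families and the ISG15 system, without a threshold on their values. The choice was made with earlier results of these data known. All 10 were found among the 12148 genes of the count table and were tested. GF+MEV mice were wild-type germ-free C57BL6 mice dosed orally with 80 μg of microbiota-derived extracellular vesicles (MEV) in PBS, 2 times per week for 3 weeks, the vesicles coming from control mice with a specific-pathogen-free flora. GF+PBS mice were the same kind of germ-free mice and received PBS alone on that schedule. Whole-liver RNA was sequenced from 5 mice per group, 1 library per mouse, in 1 experiment. The age and sex of the germ-free mice, and which animals shared a cage, were not given in the sources used here.

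Type I and type III interferons, made when a cell senses foreign nucleic acid, signal through cell-surface receptors and JAK kinases to a complex of STAT proteins and IRF9. This complex binds the interferon-stimulated response element (ISRE) in the promoters of antiviral genes and switches them on, whereas interferon gamma acts through STAT dimers on the gamma-activated site (GAS). The IFIT proteins bind viral RNA, the OAS enzymes are sensors of double-stranded RNA, ISG15 is a ubiquitin-like tag that USP18 removes, and several TRIM proteins are ubiquitin ligases that act on viruses or on immune signalling. Hepatocytes and Kupffer cells, the resident macrophages of the liver, both carry this response.

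Each library held between 15746119 and 20523649 gene reads in GF+MEV and between 16140770 and 19733387 in GF+PBS. Levels are given as CPM, a gene's reads rescaled to a common library size after TMM normalisation, and 12147 genes with at least 20 counts over the 10 libraries were tested by the quasi-likelihood method of edgeR, with p-values adjusted over all of them by Benjamini-Hochberg (threshold 0.05). The 10 hepatocyte marker genes summed to between 109000 and 128000 CPM in every liver, most of it *Alb*. Of these, *Tat* (log2 fold change 2.10, edgeR adjusted p = 7.6e-08), *Cps1* (0.38, 0.041) and *Ass1* (0.36, 0.0091) were higher in GF+MEV and 7 were not called. GF+MEV replicate 2 stood apart from the other GF+MEV livers, with a chi-square per gene of 133 to 175 against each of them, where the other pairs of that group gave 8.14 to 21.3, and its TMM factor was 0.89. In GF+PBS, replicates 1 and 3, and replicates 4 and 5, were closer to each other (root mean square difference 0.50 to 0.53 on the log2 scale) than the other pairs were (0.68 to 0.85). By this second measure GF+MEV replicate 2 stood less far apart, its pairs giving 1.24 to 1.33 and the other GF+MEV pairs 0.92 to 1.21. These differences were taken over the 300 genes that varied most within GF+MEV. The calls below were therefore also made without these livers or with the close ones summed.

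Promoter windows of 8 members were held in the RefSeq table for GRCm38.p6, each running from 250 bases before to 50 bases after a transcript start, and *Trim30a* had a second start. No window was listed there for *Oas1b* and *Usp18*. All 8 members had at least 1 match to the ISRE core GAAANNGAAA on either strand, which reads TTTCNNTTTC on the other. Of all 32851 windows, 3.44% held such a match, and the genes tested here that had a window held it in 358 of 9370 cases. The GAS letters TTCNNNGAA, which read the same on both strands, were found in 1 member, *Oas1a*, where they did not overlap the ISRE matches, and in 8.3% of all windows. A match is a description of the letters and was not shown to be a bound site. The stretches that hold the ISRE matches are shown because they are the element the group is named for and because they differ in number and place between members. They are written on the gene's own strand with the matched bases in capitals.
Isg15: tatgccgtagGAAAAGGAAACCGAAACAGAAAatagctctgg
Ifit1: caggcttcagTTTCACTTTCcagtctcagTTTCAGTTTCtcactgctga
Ifit3: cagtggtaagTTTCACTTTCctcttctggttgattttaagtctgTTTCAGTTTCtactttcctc
Oas1a: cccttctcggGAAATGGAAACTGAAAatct
Trim12c: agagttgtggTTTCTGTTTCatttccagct
Trim12a: tgtggTTTCTGTTTCatttc
Trim30a: agttctttagTTTCTTTTTCtcagttcctg
Trim21: gagagGAAACTGAAAGTGAAAtttgg

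The *Isg15* stretch (chr4:156200865-156200906, minus strand) held 3 matches that overlapped each other. *Ifit1* (chr19:34640775-34640823, plus strand) and *Ifit3* (chr19:34583363-34583426, plus strand) held the same 2 matched sequences, farther apart in *Ifit3*. In *Oas1a* (chr5:120907526-120907555, minus strand) and *Trim21* (chr7:102565449-102565474, minus strand) 2 matches overlapped. *Trim12c* (chr7:104353359-104353388), *Trim12a* (chr7:104315471-104315490) and *Trim30a* (chr7:104465210-104465239), all on the minus strand, held 1 match each, and the 20 bases shown for *Trim12a* lay unchanged within those of *Trim12c*. Only in *Trim21* and *Trim12a* did the matches lie past the first RefSeq start, beginning 13 and 19 bases after it in *Trim21* and 10 bases after it in *Trim12a*, where the GENCODE gene model starts further downstream.

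**Figure D1:**
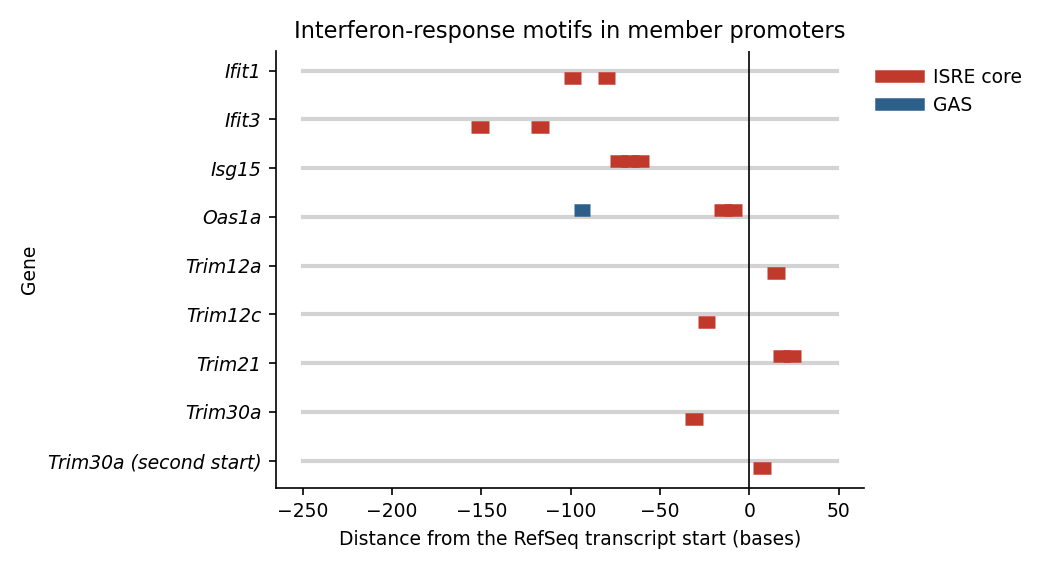
Places of ISRE core matches (red) and GAS matches (blue) in the RefSeq promoter windows of 8 members, by distance in bases from the transcript start (vertical line); bars above the grey line are on the gene's strand and bars below it on the other. Every window shown has at least 1 ISRE match, and the 1 GAS match is in *Oas1a*.

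Of the 10 members, *Trim21* and *Oas1b* were lower in GF+MEV livers, 8 did not pass the test and none was higher. Of all tested genes, 3.52% were called lower and 4.12% higher in GF+MEV, 7.64% in all. The log2 fold change was below 0 in 9 members, *Usp18* being the exception, while 51% of all tested genes were below 0. The median over the members was -0.37 and over all tested genes -0.004. At an unadjusted p under 0.05, 7 members were lower, beside 10.4% of all tested genes. Members varied together from liver to liver (below), so these counts are not counts of 10 separate observations. The members were also chosen with earlier results of these data known, which makes the counts a description. When libraries were scaled by their totals alone, *Isg15* and *Trim12c* were also called lower, 4 of 10, and in that scaling 691 of the 1023 calls over all genes were lower, against 428 of 928 with TMM. Upper-quartile scaling gave 612 lower of 1040 and called the same 2 members.

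*Trim21*, which encodes a cytosolic antibody receptor and ubiquitin ligase that marks antibody-coated virus for degradation, showed the largest difference among the members. The gene (ENSMUSG00000030966) lies on the minus strand of chromosome 7 of GRCm38, from 102557921 to 102565486. Its level was 4.76, 5.11, 5.07, 5.95 and 6.36 CPM in GF+MEV replicates 1 to 5 and 7.66, 10.9, 10, 10.4 and 9.91 CPM in GF+PBS replicates 1 to 5. All GF+MEV livers were below all GF+PBS livers, as was the case for 3.45% of all tested genes, and the GF+PBS liver nearest to the other group was replicate 1. The mean was 5.45 ± 0.675 CPM in GF+MEV and 9.77 ± 1.24 CPM in GF+PBS (SD, n = 5 each), and the log2 fold change was -0.84 ± 0.12 (SE, adjusted p = 0.00041 by edgeR). An exact two-sided permutation test of the 5 livers against 5 gave p = 0.00794, the smallest it can give at this group size. The call held under all 21 alternatives, with log2 fold changes from -0.93 to -0.80. No stretch of 100 bases in its transcripts was shared with another gene.

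*Oas1b* (ENSMUSG00000029605, chromosome 5 from 120812635 to 120824163, plus strand) belongs to the OAS enzymes, and the annotation lists it as a polymorphic pseudogene. Its intact form gives resistance to flaviviruses, and common laboratory strains carry a truncated one. The level was 1.28, 1.17, 1.30, 1.18 and 1.41 CPM in GF+MEV replicates 1 to 5 and 1.83, 2.52, 2.02, 1.92 and 1.86 CPM in GF+PBS replicates 1 to 5. The groups did not overlap, and GF+PBS replicate 2 lay above the rest of its group. The mean was 1.27 ± 0.0994 CPM in GF+MEV and 2.03 ± 0.283 CPM in GF+PBS (SD, n = 5 each), and the log2 fold change was -0.67 ± 0.09 (SE, adjusted p = 0.024 by edgeR, exact two-sided permutation p = 0.00794). These values rest on only 17 to 45 reads per library. Within GF+MEV the livers varied by 7.83% of their mean, less than the 21.5% that counting error alone would give. The SE is taken from the spread between livers, so it may understate the error. The call was lost without GF+MEV replicate 2 (adjusted p = 0.053), GF+MEV replicate 4 (0.053), GF+PBS replicate 2 (0.062) or GF+PBS replicate 3 (0.051), when the close GF+PBS livers were summed (0.059) and when GF+PBS replicates 1 and 3 were left out (0.061), all by edgeR, at log2 fold changes from -0.72 to -0.58. *Trim21* was then the only member lower in 5 of these 6 fits, and in the last *Trim12c* and *Ifit3* were lower too.

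**Figure D2:**
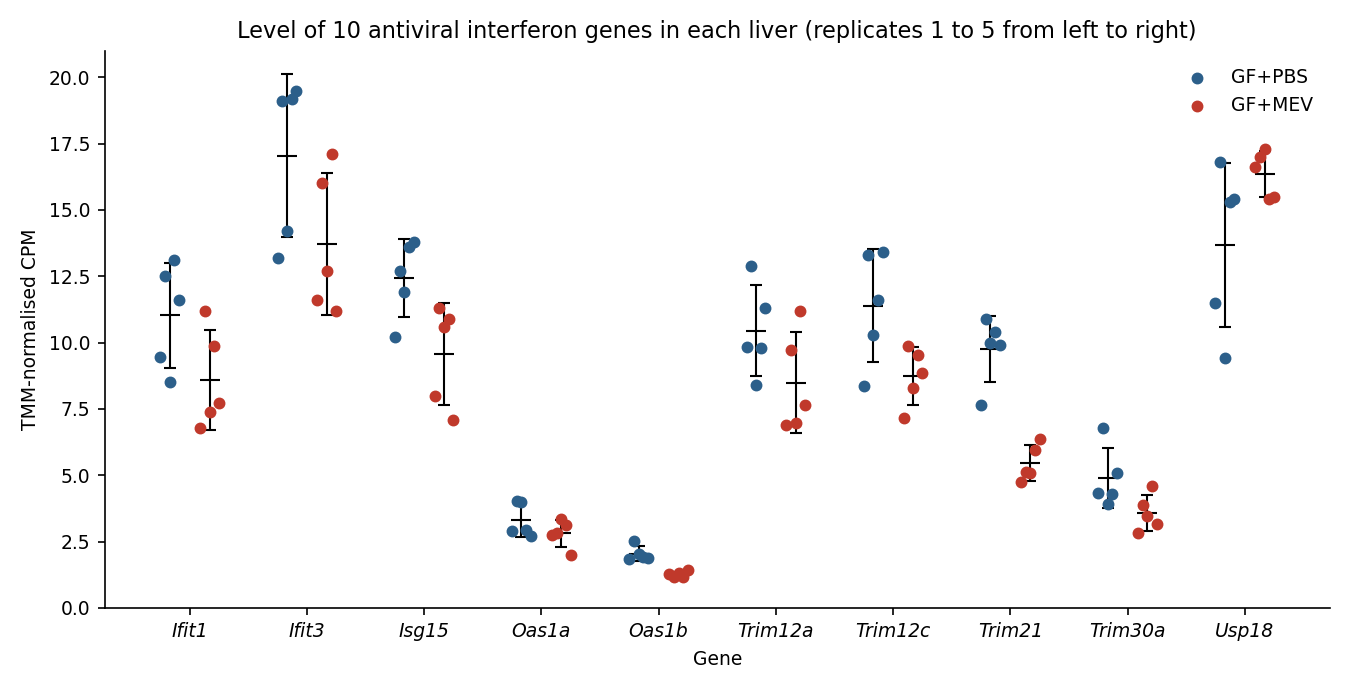
TMM-normalised CPM (linear axis) of each member in GF+PBS (blue) and GF+MEV (red) livers, with replicates 1 to 5 of each group from left to right; black bars are the mean and SD of 5 livers. *Trim21* and *Oas1b* have no overlap between groups, and *Usp18* is the member whose GF+MEV mean, 16.3 CPM, is above its GF+PBS mean, 13.7 CPM.

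Of 9 B cell markers 3 were lower in the same livers, beside 3.52% of all tested genes. The 9 summed to 13.6 to 23.4 CPM in GF+MEV and 25.0 to 30.4 CPM in GF+PBS, without overlap. *Cd79a* (log2 fold change -0.86, edgeR adjusted p = 0.0071) and *Cd79b* (-0.76, 0.032), both parts of the B cell receptor, and *Ighd* (-0.65, 0.045), the IgD heavy chain, were called lower. The other 6 were not called, and *Ms4a1*, *Blk* and *Pax5* were below 1 CPM on average. None of the 12 Kupffer cell markers was called, and 10 of the 12 were below 0, beside 51% of all tested genes. They summed to 335 to 614 CPM in GF+MEV and 383 to 538 CPM in GF+PBS. GF+MEV replicate 4 alone gave the upper end, with *Marco* at 21.2 CPM where the rest of its group lay below the lowest control, at 2.88 CPM. The other GF+MEV livers summed to 335 to 419 CPM, and replicates 1, 2 and 5 lay below every control. *Ifit3*, *Trim12a* and *Trim30a* were at their highest GF+MEV level in this liver, and the part of these cells in that was not tested. Of the 8 endothelial markers *Clec4g* was lower (-0.48, adjusted p = 0.021) and *Lyve1* higher (0.84, adjusted p = 0.040), the sums being 123 to 201 and 161 to 215 CPM, and the 4 plasmacytoid dendritic cell markers in the table (of 7) summed to 156 to 178 and 172 to 193 CPM with none called. *Bst2*, also an interferon-induced gene, made up most of that sum, at 130 to 168 CPM. Only 1 of 12 T and NK cell markers and 1 of 8 neutrophil markers were in the table, *Ccl5* and *Csf3r*, neither called. The 8 stellate cell markers summed to 176 to 251 and 204 to 230 CPM with none called. The 3 cholangiocyte markers in the table summed to 28.1 to 79.3 and 23.2 to 29.7 CPM, most of it *Spp1*. Of these, *Krt19* was higher (log2 fold change 3.87, edgeR adjusted p = 0.00063). *Spp1* (0.52, 0.13) and *Sox9* (-0.98, 0.10) were not called, and *Sox9* went the other way. In whole liver, fewer cells of a type and less RNA per cell cannot be told apart, and the part of these cell types in the levels of the members was not tested.

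The Ifit members lie close together on chromosome 19, *Ifit3* (ENSMUSG00000074896) from 34583531 to 34588731 and *Ifit1* (ENSMUSG00000034459) from 34640871 to 34650009, both on the plus strand. *Ifit1*, whose protein binds viral RNA that lacks the host's cap methylation, was at 6.77, 11.2, 7.39, 9.88 and 7.71 CPM in GF+MEV replicates 1 to 5 and at 9.44, 12.5, 8.51, 13.1 and 11.6 CPM in GF+PBS replicates 1 to 5. GF+MEV replicates 2 and 4 lay within the GF+PBS range and the other 3 below it. The log2 fold change was -0.37 ± 0.18 (SE, adjusted p = 0.18 by edgeR). *Ifit3*, a partner of IFIT1 in antiviral complexes, was at 11.6, 16, 12.7, 17.1 and 11.2 CPM in GF+MEV and at 13.2, 19.1, 14.2, 19.2 and 19.5 CPM in GF+PBS. GF+MEV replicates 2 and 4 again overlapped the controls, and GF+PBS replicates 1 and 3 were the low controls. Its log2 fold change was -0.31 ± 0.17 (SE, adjusted p = 0.23 by edgeR), and -0.49 (adjusted p = 0.045) without those GF+PBS livers. Of its possible stretches of 100 bases 31.7% also occur in *Ifit3b*, so reads could be split between the genes or left uncounted. Which of these applied was not given in the sources used here. With the counts of both genes summed the log2 fold change was -0.30 (edgeR adjusted p = 0.23), which would not bring back uncounted reads.

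*Isg15* (ENSMUSG00000035692, chromosome 4 from 156199424 to 156200818, minus strand) encodes the ubiquitin-like modifier. Its level was 7.99, 11.3, 10.6, 10.9 and 7.07 CPM in GF+MEV replicates 1 to 5 and 10.2, 12.7, 11.9, 13.6 and 13.8 CPM in GF+PBS replicates 1 to 5. GF+MEV replicates 1 and 5 were below every control, and 4 of 5 controls were above every GF+MEV liver. The log2 fold change was -0.37 ± 0.15 (SE, adjusted p = 0.11 by edgeR).

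*Usp18* (ENSMUSG00000030107, chromosome 6 from 121245906 to 121270917, plus strand) encodes the protease that takes ISG15 off its targets and also restrains signalling by the type I interferon receptor. It was at 16.6, 17, 17.3, 15.4 and 15.5 CPM in GF+MEV replicates 1 to 5 and at 11.5, 16.8, 9.4, 15.3 and 15.4 CPM in GF+PBS replicates 1 to 5. The GF+MEV livers sat close together, and the controls were split, replicates 1 and 3 lying below the rest. Its log2 fold change was 0.26 ± 0.16 (SE, adjusted p = 0.29 by edgeR), 0.15 (adjusted p = 0.49) without GF+PBS replicate 3 and 0.05 (adjusted p = 0.84) without GF+PBS replicates 1 and 3. Its exons overlap those of Gm44148 on the other strand by 124 bases, and whether counting used the strand was not given in the sources used here.

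*Oas1a* (ENSMUSG00000052776, chromosome 5 from 120896256 to 120907521, minus strand) encodes an enzyme that senses double-stranded RNA and makes short oligoadenylates as a signal. The level was 2.74, 2.83, 3.33, 3.14 and 1.99 CPM in GF+MEV replicates 1 to 5 and 2.89, 4.03, 3.99, 2.93 and 2.7 CPM in GF+PBS replicates 1 to 5. The groups overlapped, with only GF+MEV replicate 5 below all controls. The log2 fold change was -0.23 ± 0.17 (SE, adjusted p = 0.51 by edgeR), and without GF+MEV replicate 5 or GF+PBS replicate 2 it was -0.13 and -0.14. It shared 40.9% of its stretches of 100 bases with *Oas1g*, and with both summed the value was -0.21 (edgeR adjusted p = 0.48).

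*Trim12a*, *Trim12c* and *Trim30a* lie close together on the minus strand of chromosome 7 and are mouse relatives of TRIM5, a factor that blocks incoming retroviruses. *Trim12c* (ENSMUSG00000057143, from 104338754 to 104353362) was at 7.14, 9.87, 8.30, 9.54 and 8.87 CPM in GF+MEV replicates 1 to 5 and at 8.38, 13.3, 10.3, 11.6 and 13.4 CPM in GF+PBS replicates 1 to 5. All controls but replicate 1 were above every GF+MEV liver. Exons of *Trim12c* overlap those of Gm27995 on the same strand by 100 bases. Its log2 fold change was -0.38 ± 0.15 (SE, adjusted p = 0.10 by edgeR), and the gene passed the threshold without GF+PBS replicate 1 (-0.48, adjusted p = 0.026) and without GF+PBS replicates 1 and 3 (-0.55, adjusted p = 0.014).

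*Trim12a* (ENSMUSG00000066258, from 104299894 to 104315466) was at 6.89, 9.73, 6.95, 11.2 and 7.65 CPM in GF+MEV replicates 1 to 5 and at 9.83, 12.9, 8.39, 9.80 and 11.3 CPM in GF+PBS replicates 1 to 5. GF+MEV replicate 4 was above 3 of the controls. The log2 fold change was -0.30 ± 0.17 (SE, adjusted p = 0.27 by edgeR). *Trim30a* (ENSMUSG00000030921, from 104409025 to 104465193), whose protein also restrains Toll-like receptor signalling, was at 2.81, 3.86, 3.48, 4.6 and 3.15 CPM in GF+MEV and at 4.33, 6.78, 3.93, 4.30 and 5.10 CPM in GF+PBS. All GF+MEV livers but replicate 4 were below every control. Its log2 fold change was -0.45 ± 0.18 (SE, adjusted p = 0.15 by edgeR). These 3 genes shared between 3.29% and 8.05% of their stretches of 100 bases with other genes, *Trim5* and *Trim30d* among them.

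Per kilobase of exon, *Isg15* was the most abundant member, at 16.4 ± 1.91 CPM per kb in GF+PBS livers (SD, n = 5), followed by *Ifit3* at 9.75 ± 1.76, and neither overlapped the next member in this order. *Usp18* (4.90 ± 1.11), *Ifit1* (4.15 ± 0.743), *Trim12c* (3.05 ± 0.565) and *Trim21* (2.63 ± 0.333) came next, then *Trim12a* (1.81 ± 0.297), *Oas1a* (1.76 ± 0.343), *Trim30a* (1.19 ± 0.278) and *Oas1b* (1.02 ± 0.142), all in CPM per kb in GF+PBS. From *Usp18* on, the ranges of neighbours in this order overlapped. Exon lengths were used whole, although 40.9% of the stretches of 100 bases in *Oas1a* and 31.7% in *Ifit3* also occur in other genes. In GF+MEV livers *Isg15* (12.7 ± 2.54 CPM per kb), *Ifit3* (7.87 ± 1.54) and *Usp18* (5.86 ± 0.311) were again the highest, and *Oas1b* (0.638 ± 0.0499) again the lowest.

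**Figure D3:**
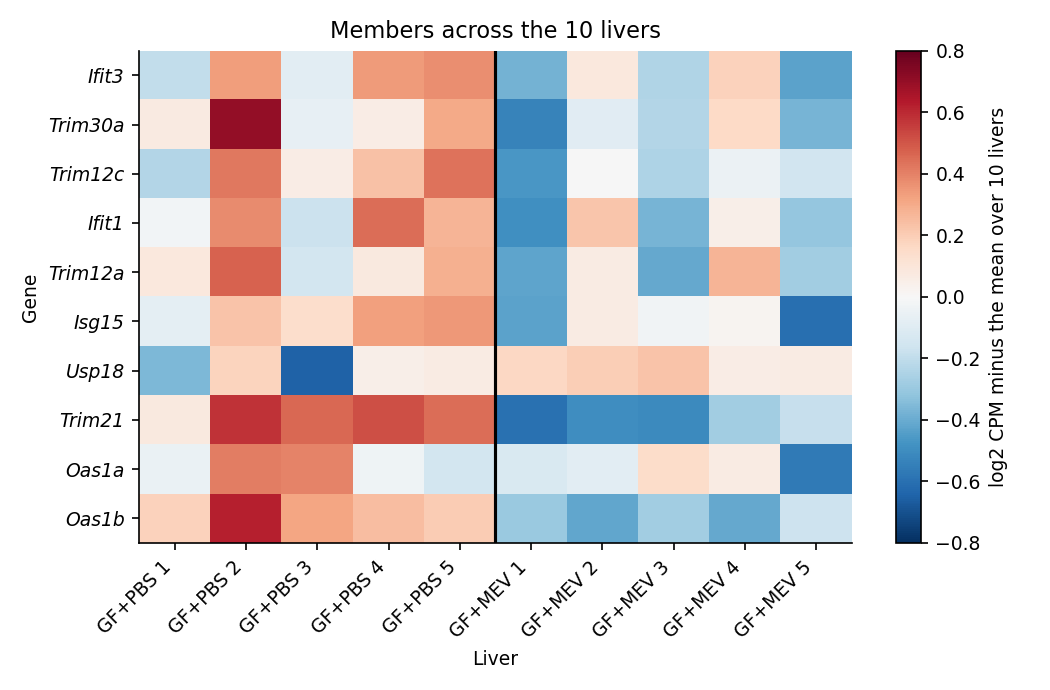
Level of each member in each liver as log2 CPM minus the gene's mean over the 10 livers, with members ordered by the correlation of their within-group pattern with the other members (highest at the top). *Trim21* and *Oas1b* are above 0 in all GF+PBS livers and below 0 in all GF+MEV livers. In GF+MEV replicate 4 *Ifit3*, *Trim30a* and *Trim12a* are above 0, and so by less are *Ifit1*, *Isg15*, *Oas1a* and *Usp18*.

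Members also differed between livers of the same group, and most did so together. After each group's mean was subtracted, *Ifit3* followed the mean of the other 9 members most closely over the 10 livers (Pearson r = 0.90, Spearman rho = 0.83), then *Trim30a* (0.86 and 0.85), *Trim12c* (0.85 and 0.90), *Ifit1* (0.80 and 0.79) and *Trim12a* (0.78 and 0.78). *Isg15* (0.68 and 0.70) and *Usp18* (0.55 and 0.56) followed less closely. *Trim21* (0.46 and 0.56), *Oas1a* (0.20 and 0.32) and *Oas1b* (0.13 and 0.13), which include both called genes, had the lowest values. Without GF+PBS replicates 1 and 2, the livers farthest from the median, r was 0.95 for *Ifit3*, 0.07 for *Trim21* and -0.79 for *Oas1b*. *Oas1b* varied within groups by less than counting error, 7.83% against 21.5% in GF+MEV and 13.9% against 16.6% in GF+PBS. Its r therefore cannot show whether it followed the other members. The points of each correlation share a library and its scaling factor. The lowest control was GF+PBS replicate 1 or 3 in 9 of 10 members, and the lowest GF+MEV liver was replicate 1 or 5 in 8. In *Ifit1*, *Ifit3*, *Isg15*, *Trim12c* and *Usp18*, both GF+PBS replicates 1 and 3 were below the other 3 controls, an order that 18.3% of all tested genes showed.

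Of the 11824 other genes that averaged 1 CPM or more, those whose within-group pattern was most like the mean of the members were *Gbp10* (Pearson r = 0.98, Spearman rho = 0.99, n = 10 livers), *Irgm2* (0.97 and 0.98), *Irgm1* (0.96 and 0.95), *Etl4* (0.96 and 0.98), *Tgtp1* (0.96 and 0.98), *Timeless* (0.95 and 0.95), *Srbd1* (0.95 and 0.93), Gm8995 (0.95 and 0.94), *H2-Eb1* (0.94 and 0.87) and *Igtp* (0.93 and 0.89). They were picked as the highest of many, which makes the values a description. *Gbp10*, *Irgm2*, *Irgm1*, *Tgtp1* and *Igtp* encode interferon-induced GTPases that act on the vacuoles of intracellular pathogens, and *H2-Eb1* a chain of MHC class II. Of the 10, *Gbp10* (log2 fold change -1.34, edgeR adjusted p = 0.022), *Irgm2* (-0.79, 0.018), *Irgm1* (-0.45, 0.046), *H2-Eb1* (-0.55, 0.039) and *Igtp* (-0.97, 0.032) were also lower in GF+MEV. The others were not called, *Etl4* (0.06, adjusted p = 0.87) and *Srbd1* (0.04, adjusted p = 0.89) having values near 0.

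The wider pathway was covered by 109 other genes in lists by role, of which 76 were tested. In GF+MEV livers 5 were lower, 1 was higher and 70 did not pass the test, so that 6.58% were called lower, beside 3.52% of all tested genes, and 1.32% higher, beside 4.12%. The median log2 fold change was -0.12, and 60 of the 76 were below 0, beside 51% of all tested genes. None of the 16 listed interferon genes was in the table, so ligands were not analysed here, and a gene outside the table was not shown to be unexpressed. None of the 5 receptor chains was called: *Ifnar1* was at 0.04 on the log2 scale (adjusted p = 0.80 by edgeR), *Ifnar2* -0.08 (0.57), *Ifngr1* -0.03 (0.86), *Ifngr2* 0.05 (0.77) and *Il10rb*, a chain of the type III receptor, -0.42 (0.21).

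Of 12 JAK, STAT and IRF genes, *Irf1* was lower and *Irf2* higher. *Irf1*, a transcription factor that switches on interferon-induced genes, ranged from 15.1 to 17.5 CPM in GF+MEV (mean 16.2) and from 33.4 to 41.1 CPM in GF+PBS (mean 37.3), without overlap. The log2 fold change was -1.21 ± 0.06 (SE, adjusted p = 9.3e-08 by edgeR). *Irf2*, which competes with IRF1 for its sites, ranged from 51.1 to 60.1 CPM in GF+MEV and from 37.0 to 48.4 CPM in GF+PBS, also without overlap, with a log2 fold change of 0.36 ± 0.09 (SE, adjusted p = 0.013 by edgeR). *Irf2* no longer passed the threshold with libraries scaled by their totals, with the close GF+PBS livers summed, or without GF+PBS replicates 1 and 3. *Stat2* (-0.19, edgeR adjusted p = 0.28) and *Irf9* (-0.24, 0.18), parts of the ISRE-binding complex, and *Irf7* (-0.08, 0.70), which amplifies interferon production, were not called.

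Among 11 nucleic acid sensors and adaptors, *Tmem173* was lower. It encodes STING, the adaptor for cytosolic DNA sensing, and ranged from 1.48 to 1.74 CPM in GF+MEV and from 2.26 to 2.80 CPM in GF+PBS, a log2 fold change of -0.71 ± 0.07 (SE, adjusted p = 0.0073 by edgeR). These values rest on only 22 to 54 reads per library, and the SE reflects only the spread between livers. The RNA sensors *Ddx58* (-0.11, adjusted p = 0.54) and *Ifih1* (0.01, 0.95) and their adaptor *Mavs* (-0.16, 0.37) were not called. *Tlr3*, the endosomal sensor of double-stranded RNA, was just outside the threshold (-0.55, adjusted p = 0.051).

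Of the tested paralogs of the members and partners of ISG15, *Trim14* alone passed the test. Neither *Ifit2* (log2 fold change -0.14, edgeR adjusted p = 0.80) nor *Ifit3b* (-0.25, 0.44) was called, and none of *Oas1g*, *Oas2*, *Oas3*, *Oasl1* and *Oasl2* was either. Of 6 other antiviral Trim genes, *Trim14*, which encodes an adaptor of MAVS, was lower (-0.31 ± 0.09 by SE, edgeR adjusted p = 0.044), from 17.4 to 22.9 CPM in GF+MEV and from 22.6 to 25.7 CPM in GF+PBS. Its call was lost when any of 7 livers was left out, GF+MEV replicates 1, 2 and 5 and GF+PBS replicates 1 to 4, and its exons overlap those of *Nans* on the other strand by 1356 bases. The ISG15-conjugating enzymes *Uba7* (-0.33, adjusted p = 0.15), *Ube2l6* (-0.22, 0.085) and *Herc6* (-0.08, 0.88) were not called.

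**Figure D4:**
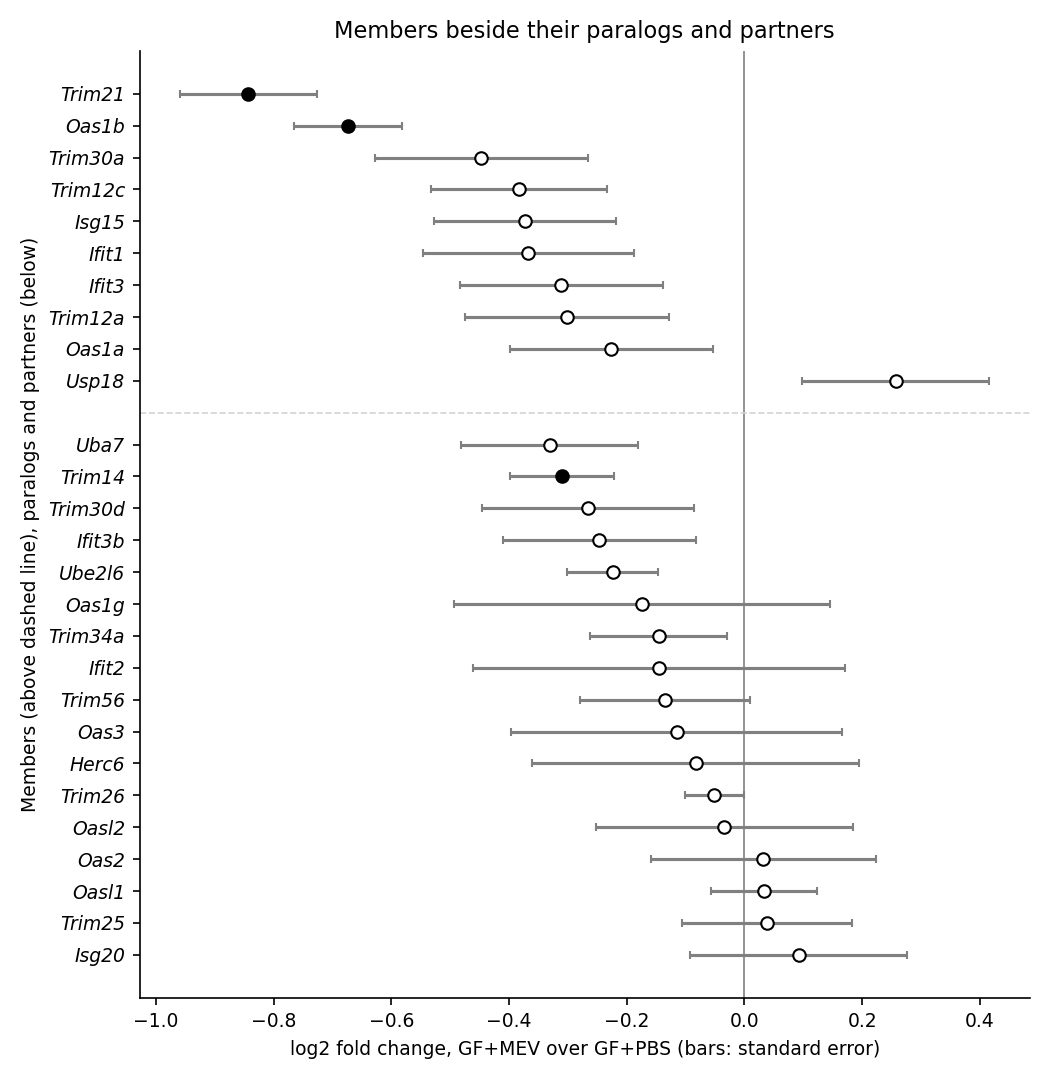
Log2 fold change of GF+MEV over GF+PBS with its standard error for the members (above the dashed line) and for tested paralogs, ISG15-conjugating enzymes and *Isg20*, which was listed with these enzymes (below it); filled points passed an edgeR adjusted p of 0.05. *Trim21*, *Oas1b* and *Trim14* are filled, and all are below 0.

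Of 30 other antiviral effectors 2 were lower, 6.67% beside 3.52% of all tested genes. The median log2 fold change was -0.15, and 26 were below 0, beside 51% of all tested genes. *Cxcl10*, an interferon-induced chemokine that draws T cells, ranged from 0.900 to 2.07 CPM in GF+MEV and from 2.02 to 5.66 CPM in GF+PBS (log2 fold change -1.36 ± 0.33 by SE, adjusted p = 0.0074 by edgeR). *Nmi*, which binds STAT proteins, ranged from 13.4 to 18.6 CPM in GF+MEV and from 20.5 to 22.3 CPM in GF+PBS (-0.36 ± 0.09 by SE, edgeR adjusted p = 0.019), and its call was lost with the close GF+PBS livers summed and without GF+PBS replicates 1 and 3. The classic effectors *Mx1* (0.03, adjusted p = 0.97), *Mx2* (0.16, 0.60), *Rsad2* (0.20, 0.51), *Ifitm3* (-0.002, 0.99) and *Bst2* (-0.14, 0.22) were not called, and the first 3 of these were among the 4 effectors above 0. The annotation lists *Mx2*, like *Oas1b*, as a polymorphic pseudogene. *Irf1*, *Tmem173* and *Cxcl10* were called lower under all 20 alternatives, although *Tmem173* and *Cxcl10* had as few as 22 and 14 reads in a library. Exons of *Irf1* overlap those of Gm17334, and exons of *Cxcl10* those of *Art3*, on the other strand by 135 and 133 bases.

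The GBP and IRG families, GTPases induced above all by interferon gamma, were also set beside the members. Of the 10 genes with the most similar pattern, 5 belonged to them. Of 18 tested, 10 were lower in GF+MEV, beside 3.52% of all tested genes, and none was higher. The median log2 fold change was -0.76, and all 18 were below 0, beside 51% of all tested genes. The lowest value was that of *Gbp11*, from 9.38 to 34.0 CPM in GF+MEV and from 35.1 to 57.9 CPM in GF+PBS (-1.58 ± 0.36 by SE, edgeR adjusted p = 0.0033). *Gbp11* is also listed in the annotation as a polymorphic pseudogene. *Gbp6* (-0.96, adjusted p = 0.0060), which like *Gbp11* did not overlap between groups, *Gbp4* (-0.84, 0.013) and *Ifi47* (-0.56, 0.031) were also lower. Some of these genes are near copies of each other and share reads to an extent that was not measured. ISRE letters were found in 10 and GAS letters in 6 of the 11 GBP and IRG genes with a promoter window, beside 8 and 1 of the 8 members. No difference between the members and these families was tested.

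**Figure D5:**
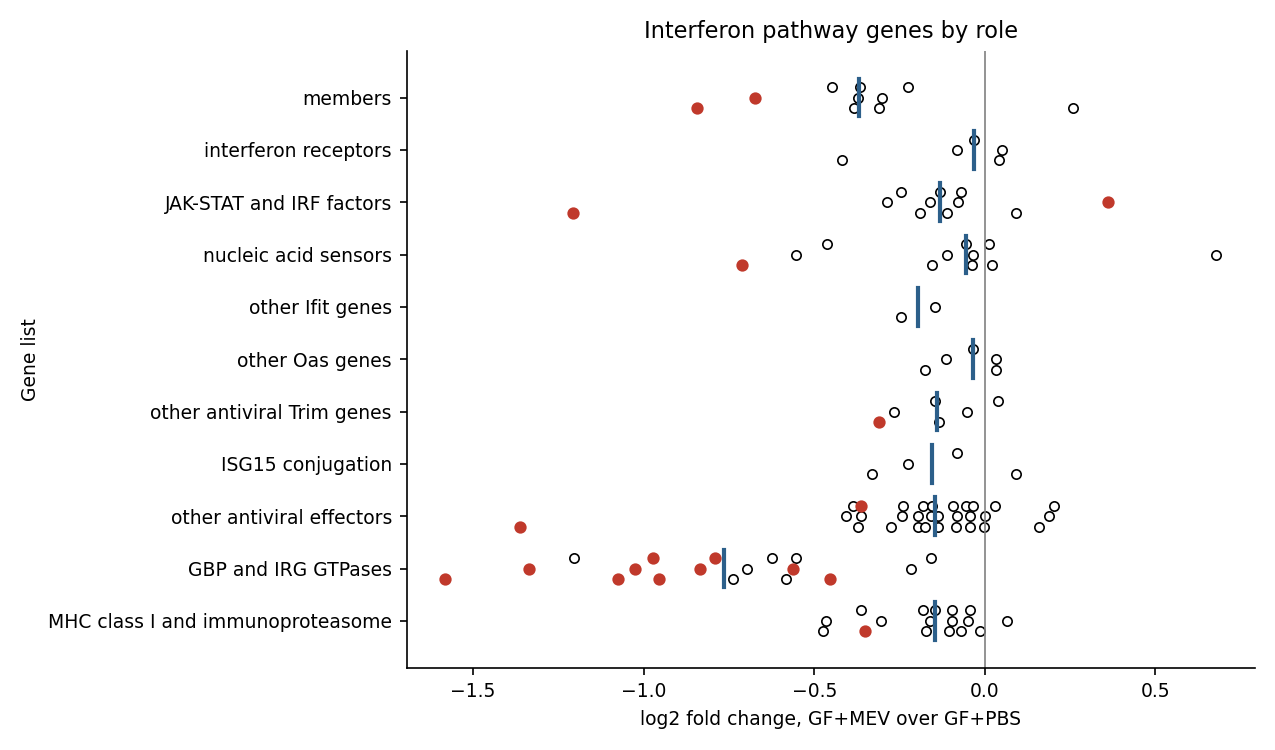
Log2 fold change of GF+MEV over GF+PBS for tested genes by role, with the median of the genes drawn as a blue bar; red points passed an edgeR adjusted p of 0.05. Red points lie below 0 in every list that has one, except that *Irf2* lies at 0.36 among the JAK, STAT and IRF genes, and GBP and IRG GTPases hold 10 of them.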

How the data were processed

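Total RNA of whole liver was sequenced on an Illumina HiSeq after NEBNext Ultra library preparation. According to the methods and processing notes, STAR 2.7.3a was used by the authors for alignment to GRCm38, HTSeq counted reads per gene, genes with few counts were removed (over which columns is uncertain), and the deposited values are raw read counts per Ensembl gene. The strand setting was not given in the sources used here. The table also held 5 columns that match none of the described samples, which were not used. Symbols and positions came from GENCODE M21 (10 identifiers had none) and promoters from RefSeq.

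The 10 libraries were fitted with edgeR 4.0.16 in R 4.3.3 (TMM, quasi-likelihood test, group as the single term, at least 20 counts summed), leaving out 1 gene. Standard errors (SE) were taken from the SDs of log2 CPM (prior count 2) of both groups. Single levels were compared by exact permutation. All p-values take the 5 livers of a group as separate animals. Read counts set the precision: members had 17 to 379 reads per library. The members and gene lists were chosen with earlier results of these data known. Named were the members, genes of the lists that passed the threshold or define a role or cell type, and the 10 genes most like the members within groups. Genes of the GBP and IRG list that were not called were not named, other than *Tgtp1*, which the likeness rule named.

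Alternatives were DESeq2 1.42.0, limma-voom (limma 3.58.1), other scalings and filters, a replicate block, each liver left out, and GF+PBS replicates summed or left out. Summing the counts of pairs of related genes in the table that share some stretches of 100 bases was added after seeing the data. The fits were tested on simulated data. A few genes of the lists enter the counts but are not reported here by name or drawn.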

Additional observations from a re-analysis of the deposited data

Results flagged for a closer look

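*Oas1b* in GF+PBS replicate 2, at 2.52 CPM, lay far above the other 4 livers of its group, which were between 1.83 and 2.02 CPM. It was the only 1 of 20 groups of 5 livers (10 members in each treatment) whose extreme value exceeded Dixon's 95% critical ratio of 0.71, with a ratio of 0.723, and chance alone would be expected to give 1. The value rests on 45 reads. Without this liver the log2 fold change of *Oas1b* was -0.58 (edgeR adjusted p = 0.062).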

How the results depend on the processing

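*Usp18* stayed above 0 and the other 9 members below 0 in all 22 fits. Of 210 member fold changes under alternatives, 197 kept their side of the threshold, 7 lost a call (all *Oas1b*) and 6 gained one (*Trim12c*, *Isg15* and *Ifit3*). The reported fit called 2 members. Scaling by library totals called 4 and lowered the exact permutation p of *Ifit1* from 0.0873 to 0.0476, leaving out 1 liver called 1 to 3, and summing GF+PBS replicates 1 with 3 and 4 with 5 called 1. That summing called 3 of the other pathway genes in place of 6, and 561 of all tested genes in place of 928, with 3 in place of 5 control samples. Leaving out 1 liver gave 5 to 7 pathway genes and 696 to 926 genes in all. The replicate numbers did not pair the livers: deviations of same-numbered livers from their group means correlated at -0.188 to 0.166. A replicate block called 2 members (*Trim21* and *Trim12c*, with *Oas1b* at an adjusted p of 0.072), 7 other pathway genes and 792 genes in all. The cause was not tested. Other scalings moved the median of all genes by at most 0.074 on the log2 scale. Depth limits *Oas1b*, *Oas1a* and *Trim30a* most, which had as few as 17, 31 and 46 reads in a library, and 8 members without a call may still differ by less than 5 livers per group could show.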

Other observations

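MHC class I, whose products present viral peptides to T cells, and the immunoproteasome, which cuts those peptides, are also induced by interferon. Of 17 such genes tested, *Psmb10*, a catalytic subunit of the immunoproteasome, was lower in GF+MEV livers, from 35.7 to 41.3 CPM against 41.7 to 58.8 CPM in GF+PBS (log2 fold change -0.35, standard error 0.10, edgeR adjusted p = 0.030). The other 16 did not pass the test, so that 5.88% were called lower, beside 3.52% of all tested genes. The median log2 fold change was -0.14, and 16 of the 17 were below 0, beside 51% of all tested genes. The subunits *Psmb8* (-0.30, adjusted p = 0.22) and *Psmb9* (-0.47, 0.072) and the peptide transporter *Tap1* (-0.47, 0.073) had values in the range of the members, and the abundant *H2-K1* (-0.05, 0.71), *H2-D1* (-0.04, 0.79) and *B2m* (-0.10, 0.55) values closer to 0. Groups of *H2-T22* did not overlap (104 to 116 CPM in GF+MEV and 118 to 134 CPM in GF+PBS) although it was not called (-0.17, edgeR adjusted p = 0.094).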
